A study of Rattus norvegicus with 9 samples.

Results

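The genes described here make, sense, take up, store and export cholesterol. They are 34 genes chosen by symbol from the 30507 rows of a table of RNA sequencing counts, and where a symbol stood on several rows the row with the highest total count was taken. The set holds 18 enzymes of the route from acetyl-CoA to cholesterol, 4 genes of sterol sensing and transfer, 5 of the liver X receptors and efflux, 4 of uptake, lysosomal egress and esterification, and 3 of oxysterol synthesis. All 34 passed the filter on low counts in each comparison. The spinal cords came from wild-type female Sprague-Dawley rats bought at 8 weeks of age and killed at 35 days post-injury (dpi), with 3 libraries in each of 3 groups. Sham rats are labelled as untreated, and in the methods they had the vertebral arch opened without injury. The SCI rats had a contusion of 150 kdyn at T10, and the SCI + SCS rats had the same contusion and epidural stimulation at 10 kHz and 0.12 mA with 30 µs pulses, for 2 h per day from 1 dpi. The tissue was whole cord around the injury, so that all of its cell types share a library. The paper states that injured rats that carried an electrode without current were not sequenced. Stimulation and the implanted electrode therefore cannot be told apart in the comparison of SCI + SCS with SCI.

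Cells build cholesterol from acetyl-CoA through mevalonate, farnesyl diphosphate, squalene and lanosterol. When membranes of the endoplasmic reticulum are low in sterol, the escort protein Scap carries the transcription factor encoded by Srebf2 to the Golgi apparatus for cleavage, and Insig proteins hold it back when sterol is plentiful. Oxysterols activate the liver X receptors, which raise transcription of the exporters Abca1 and Abcg1 and of Apoe. In the spinal cord much cholesterol lies in myelin, oligodendrocytes make it in large amounts, and macrophages that engulf myelin must store or export it.

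The libraries held between 62844376 and 88358570 counts on genes. In these, 3 counts corresponded to between 0.034 and 0.0477 CPM on the library totals before normalization. Elsewhere CPM is the count of a gene divided by the normalized library total and scaled to the same large round total in every library. Defining markers of oligodendrocytes (Mbp, Mog), neurons (Snap25, Nefl) and astrocytes were detected in every library, as the labelled tissue requires. The summed level of the skeletal muscle markers ran from 24.7 to 3773 CPM among the SCI libraries, from 68.6 to 130.1 CPM in Sham and from 36.1 to 50.4 CPM in SCI + SCS. Removing the muscle and adipocyte genes before normalization left 8 members called higher and 23 called lower in SCI against Sham. This step alters only the normalization and leaves the members' own counts as they were. It therefore cannot show how much of those counts came from muscle or fat. The labels give a group and a replicate number, and no batch entered the main test. The labels also do not state that each library is a separate rat. The p-values therefore measure the spread between the libraries of the groups compared, which may in part be technical.

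At 35 dpi the enzymes of cholesterol synthesis were lower in injured cord and most genes of efflux and storage were higher. Of the 18 synthesis enzymes, 17 fell in SCI against Sham, and in each of the 17 the SCI libraries lay below all Sham libraries. The sum of the 18 enzymes was 2654, 3274 and 3415 CPM in Sham, 798.9, 835.6 and 800.3 CPM in SCI, and 1099, 956.9 and 1138 CPM in SCI + SCS. The group means were therefore 3114 ± 404.8 CPM in Sham, 811.6 ± 20.8 CPM in SCI and 1065 ± 95.3 CPM in SCI + SCS (SD, n = 3 each), so that SCI stood at 26.1% and SCI + SCS at 34.2% of Sham. In whole tissue, fewer cells of a type and less RNA per cell cannot be told apart. The summed oligodendrocyte markers, of which 10 of 12 fell, were 60640 to 85810 CPM in Sham and 18440 to 34090 CPM in SCI, or 36% of the Sham mean, and their part in the fall of the enzymes was not tested.

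Over all 34 genes, the quasi-likelihood test of edgeR, with p-values adjusted by the Benjamini-Hochberg method over 17822 genes, called 8 higher and 23 lower in SCI against Sham at an adjusted p under 0.05, and 3 were not called. The 8 are 23.5% of the set, beside 24.3% of all genes tested, and the 23 are 67.6%, beside 25% of all genes. Libraries of the groups did not overlap for 9 members that were higher and 23 that were lower, where 32.5% and 31.1% of all genes showed the same. The median log2FC over the 18 synthesis enzymes was -1.84, with a range from -2.65 to 0.08, while the median over all genes tested was 0.02.

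**Figure D1:**
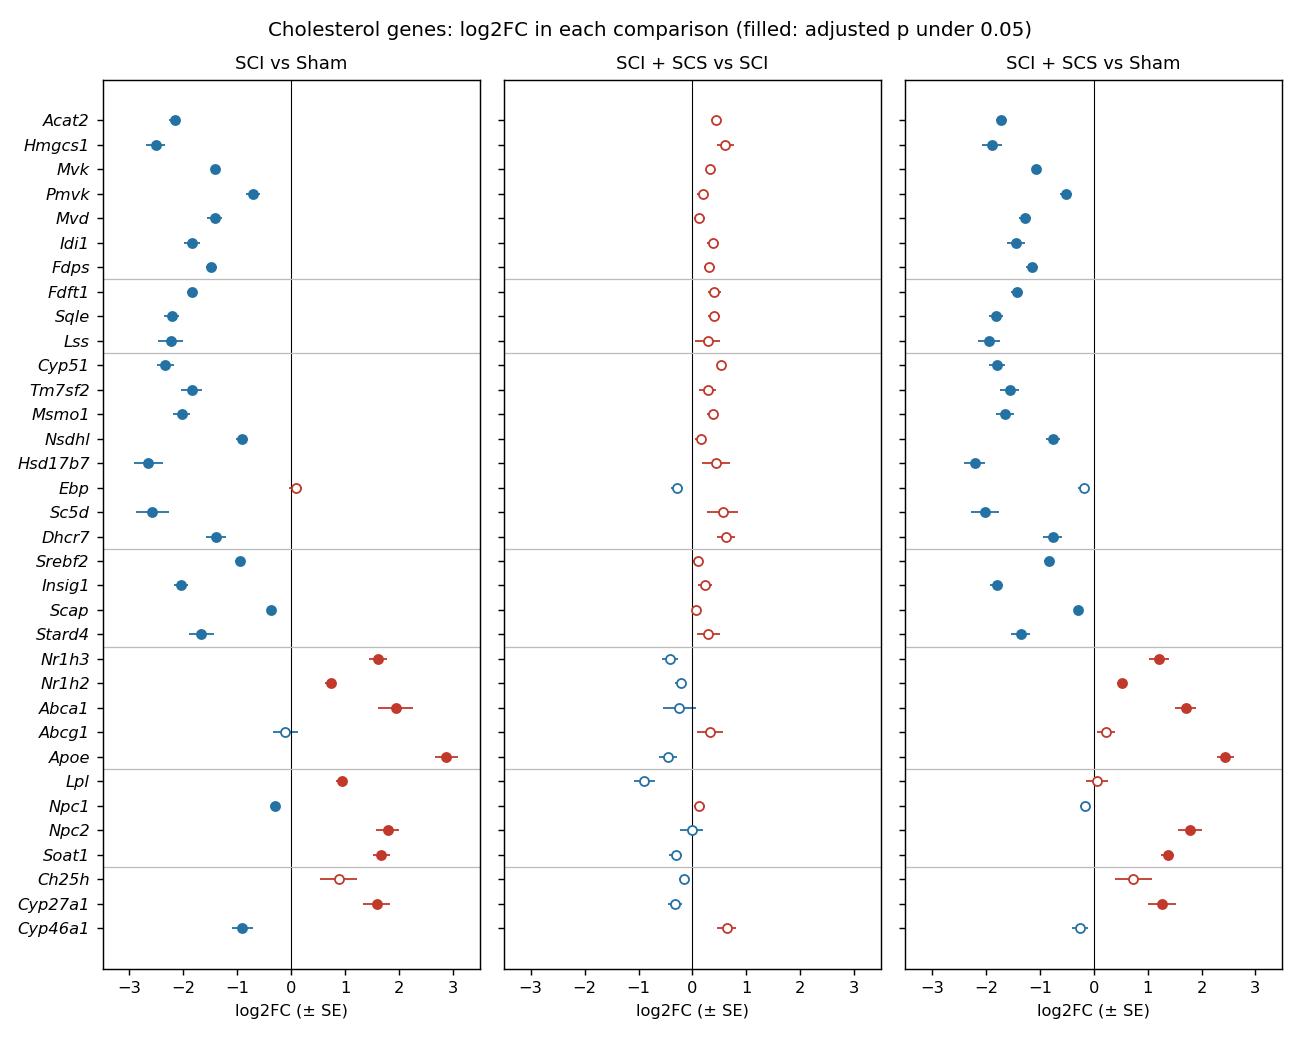
Each point is the log2FC of 1 gene with its standard error (x axis, log2 scale) in SCI against Sham, SCI + SCS against SCI and SCI + SCS against Sham, with genes in order of role from top to bottom and grey lines between the roles. Filled points had an edgeR adjusted p under 0.05: in the first panel 17 of the 18 synthesis enzymes lie left of 0 and are filled, in the second no point is filled.

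The regulatory sequences before these genes were looked up in RefSeq, where 28 of the 34 had an entry on build GRCr8, 15 of them synthesis enzymes. The 250 bases before each start were searched on both strands for 4 motifs, none of which is contained in another. CCAAT, the box bound by NF-Y, which works beside sterol-responsive transcription factors on such promoters, was present in 12 of the 15 enzymes (80%), in 6 of the 13 other members (46.2%) and in 34% of all 33469 promoters of the table. GGGCGG, the GC box, was present in 13 of the 15 enzymes (86.7%), in 9 of the 13 others (69.2%) and in 30.5% of all promoters. CACGTG, the E-box, was found in 6.67% of the enzymes, 23.1% of the others and 5.59% of all promoters, and TCACNCCAC, a strict form of the sterol regulatory element, in none of the 28 and in 0.974% of all promoters, which says only that these letters are not in this window.

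The stretches below belong to Hsd17b7, Sc5d and Hmgcs1, the synthesis enzymes with the largest |log2FC| in SCI against Sham among those with a CCAAT box in the table. They are shown to let the matches be seen on the sense strand of each gene, 5′ to 3′, with capitals marking ATTGG, the reverse complement of CCAAT.
Hsd17b7, chr13:84722755-84722960, minus strand: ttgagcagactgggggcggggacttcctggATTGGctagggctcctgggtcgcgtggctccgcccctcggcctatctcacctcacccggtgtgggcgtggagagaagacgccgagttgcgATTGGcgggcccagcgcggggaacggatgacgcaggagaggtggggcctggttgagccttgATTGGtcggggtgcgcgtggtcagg
Sc5d, chr8:51538330-51538394, minus strand: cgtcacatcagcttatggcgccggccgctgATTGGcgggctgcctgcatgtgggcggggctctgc
Hmgcs1, chr2:53382086-53382205, plus strand: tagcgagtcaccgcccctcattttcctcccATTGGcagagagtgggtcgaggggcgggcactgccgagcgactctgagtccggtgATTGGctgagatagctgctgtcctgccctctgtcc
Of these, Hsd17b7 has 3 boxes in the window, Hmgcs1 has 2 and Sc5d has 1. Ebp, the enzyme that was not called in any comparison, also has 2. Acat2, Cyp51 and Dhcr7, which fell in SCI against Sham, have no match to the box in the window. Whether the presence of a box and the size of a gene's fall go together was not tested.

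In the first stretch of the route, from acetyl-CoA to farnesyl diphosphate, all 7 enzymes fell in SCI against Sham. Hmgcs1, the cytosolic HMG-CoA synthase that joins acetoacetyl-CoA with acetyl-CoA (ENSRNOG00000016552, chr2:51649497-51667100 on mRatBN7.2), was at 630.4, 806 and 901 CPM in the Sham libraries. It was at 125, 160.4 and 128 CPM in the SCI libraries and at 231, 169 and 228 CPM in the SCI + SCS libraries. The 3 groups stood apart, each SCI library below each SCI + SCS library and those below each Sham library. The fall in SCI against Sham was -2.51 ± 0.18 (log2FC ± SE, edgeR adjusted p = 0.000997), to 17.7% of the Sham mean. Acat2, the acetyl-CoA acetyltransferase that makes acetoacetyl-CoA, had a log2FC of -2.16 ± 0.10 (edgeR adjusted p = 0.000783). Its Sham libraries were at 141, 158 and 161 CPM, its SCI libraries at 35.9, 34.1 and 33.8 CPM and its SCI + SCS libraries at 47.0, 41.9 and 50.7 CPM, without overlap between any of the groups.

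The kinases and the decarboxylase that turn mevalonate into isopentenyl diphosphate fell less. Mvk, mevalonate kinase, went from 61.8, 67.0 and 68.1 CPM in Sham to 25.1, 24.6 and 25.6 CPM in SCI (log2FC -1.41 ± 0.08, edgeR adjusted p = 0.000783). Pmvk, phosphomevalonate kinase, had the smallest fall among the 17 enzymes, with a log2FC of -0.72 ± 0.13 (edgeR adjusted p = 0.00557). Mvd, the decarboxylase, had a log2FC of -1.42 ± 0.14 (edgeR adjusted p = 0.00138). Idi1 isomerizes isopentenyl diphosphate and Fdps condenses the isomers to farnesyl diphosphate, the branch point toward ubiquinone, dolichol and protein prenylation. Their log2FC values were -1.84 ± 0.16 and -1.48 ± 0.11, with SCI libraries between 24.3 and 27.3 CPM for Idi1 and between 112 and 118 CPM for Fdps, against 72.6 to 107 CPM and 284 to 338 CPM in Sham.

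The 3 enzymes that commit farnesyl diphosphate to sterols fell as well. Fdft1, squalene synthase, was at 207, 225 and 222 CPM in Sham and at 62.4, 62.1 and 60.4 CPM in SCI, a spread of 1.07 CPM (SD) around a mean of 61.7 CPM (log2FC -1.84 ± 0.09, edgeR adjusted p = 0.000783). Sqle, squalene epoxidase, a rate-limiting step after mevalonate, fell from 145, 186 and 183 CPM to 33.5, 40.7 and 38.1 CPM (log2FC -2.21 ± 0.14, edgeR adjusted p = 0.000817). Lss, which closes the rings to lanosterol, had a log2FC of -2.24 ± 0.23 (edgeR adjusted p = 0.00143), with Sham libraries between 58.2 and 84.4 CPM and SCI libraries between 12.2 and 19.9 CPM.

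From lanosterol to cholesterol, 7 of 8 enzymes fell and Ebp did not pass the test. Cyp51, the lanosterol demethylase, was at 396, 530.2 and 579 CPM in Sham, at 99.3, 102 and 99.2 CPM in SCI and at 146, 134 and 152 CPM in SCI + SCS. The groups again did not overlap, and the log2FC in SCI against Sham was -2.34 ± 0.16 (edgeR adjusted p = 0.000977). A second row with this symbol, on another chromosome, held between 4 and 41 counts in a library. Hsd17b7, the sterol 3-ketoreductase, had the largest fall of the route, from 6.91, 8.20 and 10.1 CPM in Sham to 1.12, 1.76 and 1.17 CPM in SCI (log2FC -2.65 ± 0.27, edgeR adjusted p = 0.00138). Sc5d, the desaturase that introduces the double bond of 7-dehydrocholesterol, was the next, from 74.4, 90.9 and 126 CPM to 10.9, 21.7 and 16.7 CPM (log2FC -2.58 ± 0.31, edgeR adjusted p = 0.00188).

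Msmo1, the methyl sterol oxidase, and Tm7sf2, a sterol C14 reductase, fell with log2FC values of -2.03 ± 0.16 and -1.85 ± 0.20. Nsdhl, the sterol dehydrogenase that works with Msmo1, fell less (-0.91 ± 0.11), with 55.3 to 68.8 CPM in Sham and 32.8 to 36.1 CPM in SCI. Dhcr7, which completes cholesterol from 7-dehydrocholesterol, was at 46.9, 66.9 and 58.6 CPM in Sham, at 26.1, 21.4 and 18.6 CPM in SCI and at 30.3, 40.7 and 30.3 CPM in SCI + SCS (SCI against Sham, log2FC -1.40 ± 0.18, edgeR adjusted p = 0.00215). Its SCI + SCS mean was 58.7% of Sham, beside 38.4% in SCI. Ebp, the sterol isomerase of the same stretch, was at 19.8, 22.0 and 24.5 CPM in Sham and at 23.9, 20.8 and 26.1 CPM in SCI, and these overlapped. Its difference was 0.08, with a 95% confidence interval from -0.22 to 0.38, which excludes the log2FC of every other enzyme of the route.

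**Figure D2:**
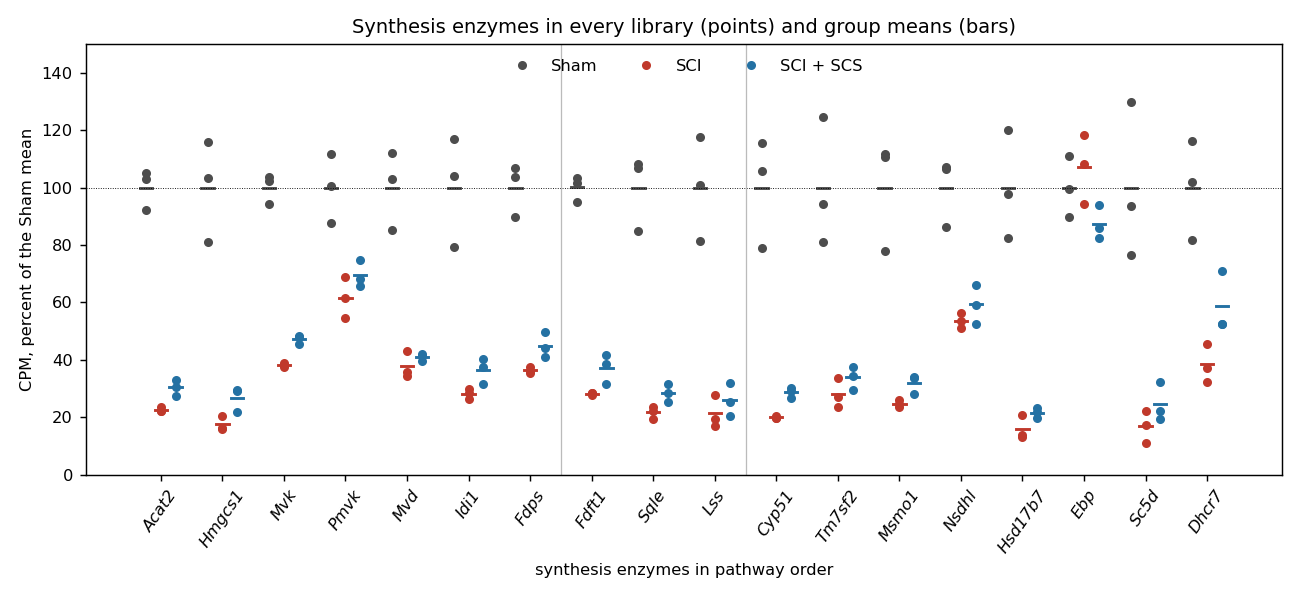
The level of each synthesis enzyme (y axis, CPM as percent of the Sham mean, from 0) in every library, with enzymes in pathway order on the x axis, points for the libraries and short bars for the group means of 3 libraries. Hmgcs1 in SCI stands at 17.7% of Sham, Cyp51 at 20.0% and Pmvk at 61.6%, while Ebp stands at 107%.

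The 4 genes of sterol sensing and transfer all fell in SCI against Sham. Insig1, which anchors the escort protein in the endoplasmic reticulum and is itself transcribed when sterol is low, was at 172, 196 and 167 CPM in Sham, at 39.3, 43.8 and 48.2 CPM in SCI and at 55.3, 43.6 and 54.4 CPM in SCI + SCS. Its log2FC in SCI against Sham was -2.05 ± 0.12 (edgeR adjusted p = 0.000783), and both injured groups lay wholly below Sham. Srebf2, the transcription factor gene, fell less, from 147, 155 and 158 CPM to 77.0, 81.7 and 82.2 CPM (log2FC -0.95 ± 0.09, edgeR adjusted p = 0.00120). Scap, its escort, had the smallest fall of the 4 (log2FC -0.37 ± 0.08, edgeR adjusted p = 0.0113), from between 107 and 117 CPM to between 86.4 and 89.8 CPM. Stard4, a soluble carrier that moves sterol between membranes, fell from between 6.26 and 8.98 CPM to between 1.85 and 2.67 CPM (log2FC -1.67 ± 0.24, edgeR adjusted p = 0.00276).

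The liver X receptors and 2 of their targets in this set rose. Apoe, the lipoprotein that carries cholesterol between cells of the nervous system (ENSRNOG00000018454, chr1:79353916-79356787 on mRatBN7.2), was at 3350, 3438 and 3930 CPM in Sham. It was at 26160, 26370 and 27260 CPM in SCI and at 19220, 21090 and 17660 CPM in SCI + SCS. The SCI libraries were the highest and the Sham libraries the lowest, with no overlap between any of the 3 groups. Its rise in SCI against Sham, a log2FC of 2.88 ± 0.21 (edgeR adjusted p = 0.000998, a fold of 7.36), had the largest size among the 34 genes.

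Abca1, the exporter that loads cholesterol onto apolipoproteins, was at 6.45, 8.93 and 8.14 CPM in Sham, at 22.5, 46.3 and 22.2 CPM in SCI and at 20.2, 31.6 and 24.6 CPM in SCI + SCS. It rose in SCI against Sham by a log2FC of 1.94 ± 0.33 (edgeR adjusted p = 0.00444), and SCI replicate 2 stood far above the other SCI libraries. Abcg1, the exporter that passes cholesterol to larger lipoproteins, did not pass the test, at 48.0, 43.8 and 37.3 CPM in Sham and 34.9, 54.9 and 31.5 CPM in SCI (log2FC -0.11, 95% confidence interval -0.66 to 0.45). SCI replicate 2 was again the highest of its group. Nr1h3, the liver X receptor of macrophages and other lipid-handling cells, rose from 6.42, 6.04 and 8.27 CPM to 19.0, 21.5 and 23.6 CPM (log2FC 1.61 ± 0.16, edgeR adjusted p = 0.00143). Nr1h2, the receptor that most cells express, rose from between 75.1 and 84.3 CPM to between 128 and 146 CPM (log2FC 0.73 ± 0.10, edgeR adjusted p = 0.00229). The microglia and macrophage markers, 13 of 13 of which rose, summed to 556 to 1018 CPM in Sham and 5143 to 6143 CPM in SCI, and their part in the rise of Apoe, Abca1 and Nr1h3 was not tested.

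Among the genes of uptake, lysosomal egress and esterification, 3 rose and Npc1 fell. Npc2, which picks up free cholesterol in the lysosome, rose from 192, 257 and 299 CPM to 911, 1004 and 695 CPM (log2FC 1.79 ± 0.21, edgeR adjusted p = 0.00192). Npc1, the membrane protein that receives cholesterol from Npc2, went the other way, from 113, 125 and 121 CPM to 96.3, 95.2 and 103 CPM (log2FC -0.30 ± 0.09, edgeR adjusted p = 0.0275). The call for Npc1 was lost in 7 of 16 alternative settings, among them FPKM in place of counts. A second row of the same Ensembl identifier held 470 counts in Sham replicate 3 and 53 or fewer in every other library, and those counts were not added.

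Soat1, which esterifies cholesterol for storage in droplets, rose from 23.6, 29.4 and 31.9 CPM to 79.3, 105 and 89.3 CPM (log2FC 1.67 ± 0.16, edgeR adjusted p = 0.00129). Lpl, lipoprotein lipase, which frees fatty acids from lipoproteins and helps their uptake, was at 16.6, 15.0 and 16.7 CPM in Sham, at 28.8, 33.1 and 31.6 CPM in SCI and at 18.9, 11.6 and 19.5 CPM in SCI + SCS. It rose in SCI against Sham (log2FC 0.94 ± 0.10, edgeR adjusted p = 0.00158), and the SCI + SCS libraries overlapped those of Sham. Adipocytes also express Lpl. Of their markers, Lep was at 0 in every library and Adipoq at or below 0.304 CPM, while the sum of the 10 markers was 45.7 to 56.0 CPM in Sham, 126 to 155 CPM in SCI and 66.8 to 84.4 CPM in SCI + SCS, carried in SCI by Cfd and Fabp4. The part of adipocytes in the rise of Lpl was not tested, nor was that of microglia and macrophages, whose markers also rose.

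The oxysterol genes did not move as a group. Cyp27a1, the mitochondrial 27-hydroxylase, rose from 10.3, 15.6 and 21.5 CPM in Sham to 46.9, 44.0 and 52.7 CPM in SCI (log2FC 1.58 ± 0.25, edgeR adjusted p = 0.00363). Cyp46a1, the 24-hydroxylase by which neurons turn over their cholesterol, fell from 62.7, 47.9 and 47.4 CPM to 35.8, 27.1 and 22.7 CPM (log2FC -0.90 ± 0.20, edgeR adjusted p = 0.0116). The neuron markers, 12 of 12 of which fell, summed to 4668 to 9765 CPM in Sham and 781 to 2034 CPM in SCI, and their part in the fall of Cyp46a1 was not tested. Ch25h, the 25-hydroxylase of activated macrophages, was at 6.06, 14.0 and 16.7 CPM in Sham and at 23.5, 22.9 and 21.9 CPM in SCI. Its groups did not overlap but the spread within Sham was wide, and its log2FC of 0.88 ± 0.34 did not pass (edgeR adjusted p = 0.0700), although it passed in 5 of 16 alternative settings.

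**Figure D3:**
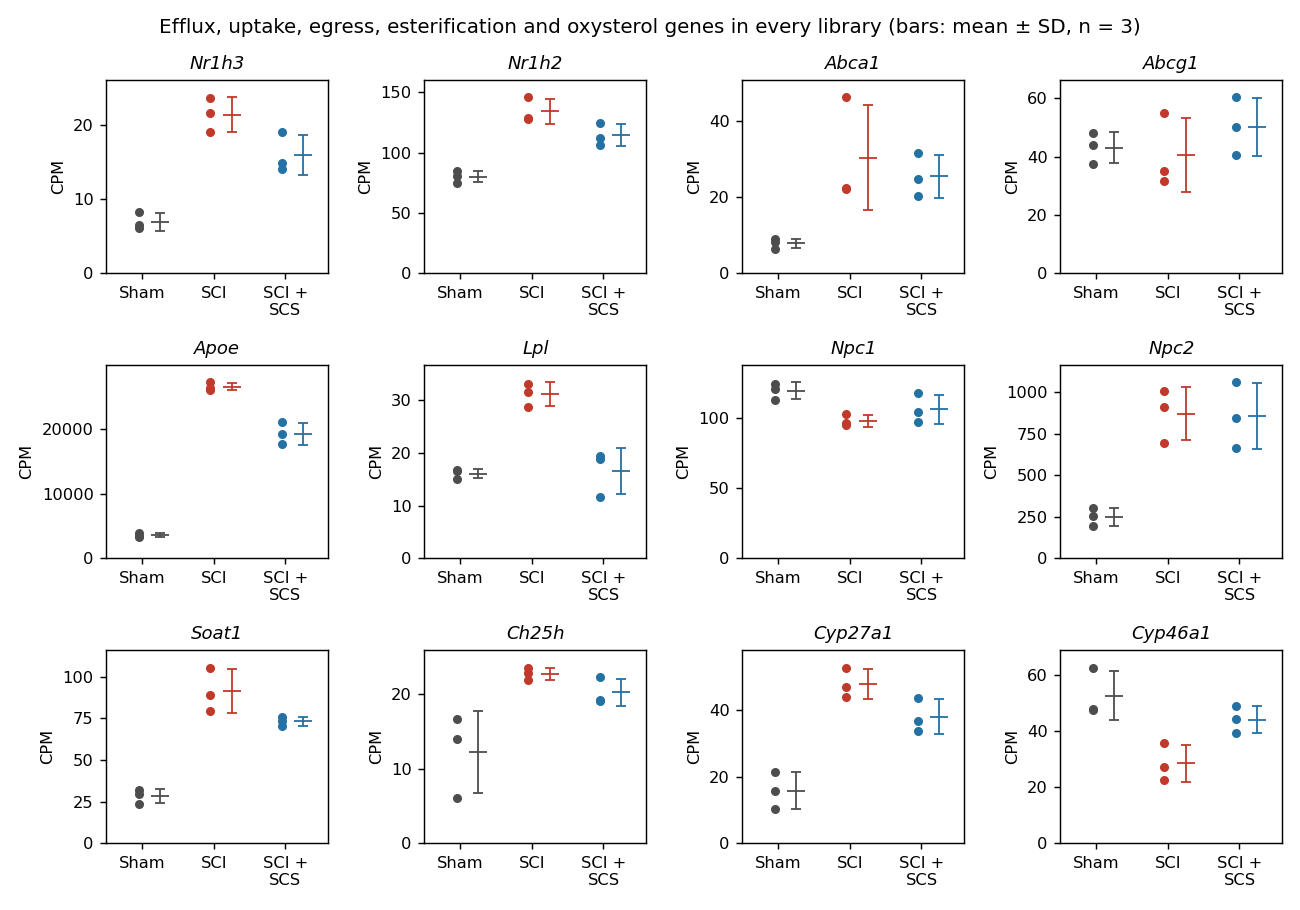
Levels of the 12 genes of efflux, uptake, egress, esterification and oxysterol synthesis (y axis, CPM from 0, a separate scale per gene) in Sham, SCI and SCI + SCS, with points for the libraries and bars for mean ± SD of 3 libraries. Apoe and Soat1 in SCI + SCS lie between the other groups, Lpl in SCI + SCS lies at the Sham level, and 1 SCI library of Abca1 stands at 46.3 CPM above the other 2.

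Levels can be compared between genes on the scale of FPKM, which divides by gene length. The gene lengths behind the deposited FPKM are not given in the sources used here, and the length implied by CPM over FPKM differed between libraries by up to 1.21-fold, for Fdps. In Sham, Apoe was the highest of the 34 at 2160 ± 190.7 FPKM, followed by Hmgcs1 at 180.3 ± 32.8, Npc2 at 160 ± 36.0, Msmo1 at 138 ± 28.5 and Cyp51 at 130 ± 25.9 FPKM (SD, n = 3 each). The last 4 of these overlap within their SDs with their neighbours in the order. In SCI, Apoe reached 16400 ± 1075 FPKM and Npc2 555 ± 108 FPKM, followed by Nr1h2 at 53.2 ± 7.42, Msmo1 at 33.98 ± 4.24 and Hmgcs1 at 33.4 ± 6.80 FPKM, the last pair without a difference beyond their SDs. The lowest in Sham were Abca1 at 0.852 ± 0.155 FPKM and Stard4 at 2.19 ± 0.488 FPKM, and the lowest in SCI were Hsd17b7 at 0.636 ± 0.206 and Stard4 at 0.703 ± 0.181 FPKM.

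Against SCI, edgeR's quasi-likelihood test called no member in the stimulated cords, and 17 of the 18 synthesis enzymes had a positive log2FC. SCI + SCS against SCI shares its SCI libraries with SCI against Sham, so that the values of those libraries enter both comparisons with opposite sign. edgeR called 0 of the 34 higher and 0 lower over 17663 genes, where it called 0.00566% and 0% of all genes. At an unadjusted p under 0.05 there were 11 members higher (32.4%, beside 13.3% of all genes) and 6 lower (17.6%, beside 10.9%). DESeq2 called 11 members higher and 2 lower, beside 9.03% and 7.04% of the genes it tested. Its 11 were Acat2, Hmgcs1, Mvk, Idi1, Fdps, Fdft1, Sqle, Cyp51, Msmo1, Dhcr7 and Cyp46a1, and its 2 were Apoe and Lpl. The libraries of the groups did not overlap for 13 members that were higher, which is 38.2% beside 15.6% of all genes, and for 6 that were lower, 17.6% beside 13.9%.

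The median log2FC of the 18 synthesis enzymes in SCI + SCS against SCI was 0.38, beside -0.01 over all genes tested, with a range from -0.28 to 0.62. In 10 of them every SCI + SCS library was above every SCI library. The smallest adjusted p was that of Cyp51, with a log2FC of 0.53 (95% confidence interval 0.34 to 0.72, edgeR adjusted p = 0.0719). Dhcr7 had the largest difference at 0.62 (0.22 to 1.02, edgeR adjusted p = 0.105), followed by Hmgcs1 at 0.61 (0.24 to 0.98, edgeR adjusted p = 0.0970). Ebp was the one enzyme with a negative value, -0.28 (-0.55 to -0.02, edgeR adjusted p = 0.187), with SCI + SCS libraries of 20.8, 19.0 and 18.2 CPM, all below the SCI libraries. For Mvd and Pmvk the libraries overlapped, with log2FC values of 0.13 (-0.12 to 0.38) and 0.19 (-0.07 to 0.44). They also overlapped for Hsd17b7 at 0.43 (-0.19 to 1.05) and Sc5d at 0.56 (-0.115 to 1.23). The same held for Lss at 0.28 (-0.26 to 0.83), Tm7sf2 at 0.28 (-0.10 to 0.66) and Nsdhl at 0.15 (-0.09 to 0.40).

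The 4 sensing and transfer genes had smaller values than most enzymes in this comparison. Srebf2 had a log2FC of 0.11 (-0.11 to 0.32), Scap 0.07 (-0.10 to 0.24), Insig1 0.23 (-0.06 to 0.53) and Stard4 0.29 (-0.20 to 0.79), the values in parentheses being 95% confidence intervals. Among the efflux genes, Apoe had a log2FC of -0.45 (-0.84 to -0.07, edgeR adjusted p = 0.157) with non-overlapping libraries, Nr1h3 -0.41 (-0.76 to -0.07), Nr1h2 -0.22 (-0.45 to 0.01) and Abcg1 0.32 (-0.24 to 0.88). Abca1 was at -0.24 (-0.98 to 0.50), and without SCI replicate 2 its value was 0.19. Lpl had the largest negative value of the set, -0.90 (-1.36 to -0.43, edgeR adjusted p = 0.0851), and Soat1 was at -0.31 (-0.58 to -0.04, edgeR adjusted p = 0.164). Npc2 was at -0.02 (-0.50 to 0.47) and Npc1 at 0.13 (-0.10 to 0.35). Cyp46a1, at 39.3, 44.3 and 48.8 CPM in SCI + SCS, lay above all SCI libraries with a log2FC of 0.64 (0.22 to 1.05, edgeR adjusted p = 0.106). Cyp27a1 was at -0.32 (-0.61 to -0.04) and Ch25h at -0.16 (-0.39 to 0.07).

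Against Sham, 17 of the 18 synthesis enzymes fell in the stimulated cords and 4 of the 5 genes of the liver X receptors and efflux rose. edgeR's quasi-likelihood test over 17640 genes called 7 members higher (20.6%, beside 16.2% of all genes) and 21 lower (61.8%, beside 16.2%), and 6 were not called. Libraries did not overlap for 8 members that were higher and 21 that were lower, 23.5% and 61.8% of the set, beside 27% and 26.2% of all genes. The 17 enzymes called in SCI against Sham were also called lower here, with a median log2FC of -1.50 over the 18 enzymes, but both comparisons share the Sham libraries. Hsd17b7 was at -2.21 ± 0.19 (edgeR adjusted p = 0.00315), Sc5d at -2.01 ± 0.26, Hmgcs1 at -1.89 ± 0.18, Dhcr7 at -0.76 ± 0.17 (edgeR adjusted p = 0.0205) and Pmvk at -0.52 ± 0.11 (edgeR adjusted p = 0.0166). Insig1 (-1.80 ± 0.12), Stard4 (-1.36 ± 0.18), Srebf2 (-0.83 ± 0.09) and Scap (-0.29 ± 0.07) were lower.

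The 7 genes called higher than Sham were Apoe (log2FC 2.44 ± 0.16, edgeR adjusted p = 0.00278), Npc2 (1.78 ± 0.23), Abca1 (1.70 ± 0.20), Soat1 (1.37 ± 0.12), Cyp27a1 (1.27 ± 0.26), Nr1h3 (1.21 ± 0.18) and Nr1h2 (0.52 ± 0.09). The 6 not called were Ebp (-0.19), Abcg1 (0.23), Lpl (0.05), Npc1 (-0.17), Ch25h (0.73) and Cyp46a1 (-0.25). For Lpl the 95% confidence interval of the difference ran from -0.43 to 0.54, and for Cyp46a1 from -0.60 to 0.09. Of the 6, Lpl, Cyp46a1 and Npc1 had been called in SCI against Sham.

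Neighbouring pathways were covered by 63 further genes, of which 61 were in the files. In SCI against Sham, 13 of the 61 were higher and 30 lower, where 24.3% and 25% of all genes were called, and none of the list counts was tested against that background. Of these, fatty acid synthesis and desaturation had 1 of 14 higher and 11 lower, with a median log2FC of -1.03. Scd, a stearoyl-CoA desaturase, fell from 115, 207 and 234 CPM to 14.9, 13.1 and 14.8 CPM (log2FC -3.72 ± 0.28, edgeR adjusted p = 0.00103), and Elovl6, a fatty acid elongase, had a log2FC of -1.86 ± 0.28. Srebf1, whose product drives fatty acid synthesis and whose transcription is raised by liver X receptors, was the one that rose, from 65.9, 72.8 and 92.8 CPM to 224, 327 and 248 CPM (log2FC 1.77 ± 0.19, edgeR adjusted p = 0.00156). Its direction was opposite to that of the 11 genes of its list that fell. In SCI + SCS, Scd was at 23.2, 24.96 and 28.3 CPM, above all SCI libraries (log2FC 0.85, edgeR adjusted p = 0.0719), and Srebf1 was at 269, 294 and 257 CPM, overlapping SCI.

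The isoprenoid branches that leave the route at farnesyl diphosphate had 0 of 10 higher and 6 lower in SCI against Sham, with small values. Coq2, of ubiquinone synthesis, was at -0.72 ± 0.13 and Icmt, the methyltransferase of prenylated proteins, at -0.59 ± 0.14. Of the 8 other sterol-sensing genes 1 was higher and 4 were lower, with Insig2, which holds the escort protein as Insig1 does, at -0.66 ± 0.15. The other uptake and trafficking genes had 4 of 13 higher and 4 lower. Msr1, a scavenger receptor of macrophages, rose from 0.329, 0.885 and 1.30 CPM to 3.40, 6.16 and 4.43 CPM (log2FC 2.45 ± 0.51, edgeR adjusted p = 0.00877), and Lrp8, an apolipoprotein E receptor of neurons, fell from 8.57, 9.76 and 7.32 CPM to 1.56, 2.31 and 2.13 CPM (log2FC -2.11 ± 0.23, edgeR adjusted p = 0.00151). The other efflux, lipoprotein and liver X receptor target genes had 7 of 16 higher and 5 lower, led by Apoc1 (2.42 ± 0.20), an apolipoprotein, and Pltp (1.94 ± 0.20), which transfers phospholipids between lipoproteins.

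In SCI + SCS against SCI, edgeR called 0 of these 61 genes, with 14 higher and 4 lower at an unadjusted p under 0.05 (13.3% and 10.9% of all genes), of which 10 of the higher were in the fatty acid list. Against Sham, 10 were higher and 22 lower in SCI + SCS, where 16.2% of all genes were called in each direction. By list, the genes with the largest size among those called were Scd (-2.86) and Srebf1 (1.83), Coq2 (-0.54) and Icmt (-0.52), Insig2 (-0.58) and Erlin1 (0.39), Lrp8 (-1.01) and Scarb2 (-0.84), and Apoc1 (2.52) and Pltp (1.76).

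Cell type markers are given beside the set as sums per library. In SCI + SCS against SCI, edgeR called 0 of the 85 markers tested higher and 0 lower. The oligodendrocyte markers summed to 31780 to 37700 CPM in SCI + SCS, or 49.5% of Sham, and those libraries overlapped SCI, while the neuron markers summed to 2065 to 3406 CPM, or 38.2% of Sham, beside 20% in SCI. The microglia and macrophage markers summed to 4133 to 4816 CPM in SCI + SCS, below every SCI library, and the astrocyte markers to 10360 to 13490 CPM, beside an overlapping 6826 to 10550 CPM in SCI and 5886 to 8962 CPM in Sham. Gfap contributed a mean of 5874 CPM to the astrocyte sum in SCI, and of the 10 markers 1 was called higher and 4 lower in SCI against Sham. Between the highest and the lowest library, the oligodendrocyte sum varied 1.42-fold in Sham, 1.85-fold in SCI and 1.19-fold in SCI + SCS, and the synthesis sum 1.29-fold, 1.05-fold and 1.19-fold. Set against the oligodendrocyte markers of the same library, the synthesis enzymes were at 4.38%, 5.09% and 3.98% of the marker sum in Sham, 2.34%, 3.56% and 4.34% in SCI, and 3.46%, 2.54% and 3.26% in SCI + SCS. On this scale SCI replicate 3 overlapped Sham and the injured groups overlapped each other. The fibroblast markers summed to 490 to 2189 CPM in Sham, 3788 to 5940 CPM in SCI and 2351 to 3963 CPM in SCI + SCS. The sums of the Schwann cell and endothelial markers stood at 168% and 118% of Sham in SCI and at 163% and 116% in SCI + SCS. The Schwann cell sums of SCI + SCS, 5494 to 11800 CPM, overlapped those of Sham, 3954 to 5938 CPM. Of the endothelial markers, 2 of 7 were called higher and 1 lower in SCI against Sham, beside 24.3% and 25% of all genes. The part of these cell types in the differences of the set was not tested.

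**Figure D4:**
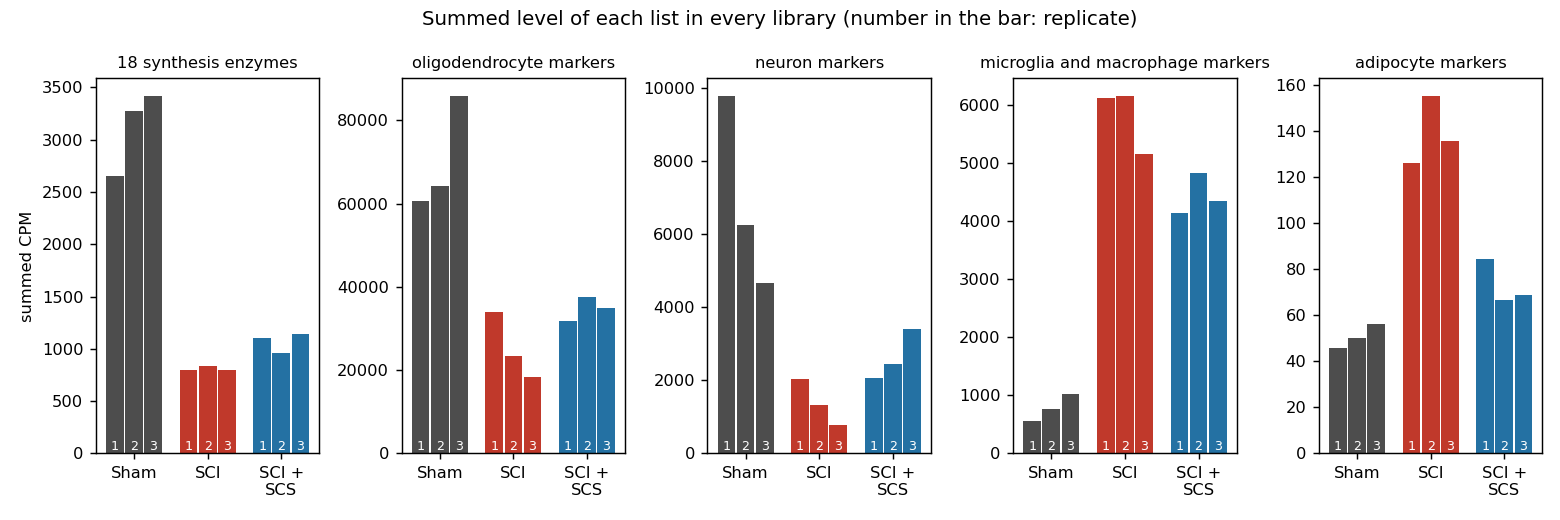
Summed CPM (y axis, from 0, a separate scale per panel) of the 18 synthesis enzymes and of the oligodendrocyte, neuron, microglia and macrophage, and adipocyte markers in each of the 9 libraries, with 1 bar per library and the replicate number at its foot. The synthesis sums lie between 2654 and 3415 CPM in Sham, 798.9 and 835.6 CPM in SCI, and 956.9 and 1138 CPM in SCI + SCS, and the oligodendrocyte sums between 60640 and 85810, 18440 and 34090, and 31780 and 37700 CPM.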

How the data were processed

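RNA for 9 spinal cord libraries was enriched for mRNA with oligo(dT) beads and sequenced with 150-base paired reads. The submitters' processing notes name fastp 0.23.2, HISAT2 2.2.1 and genome build mRatBN7.2, and the counting program is not given in the sources used here. The authors deposited raw counts per gene without normalization. The authors also deposited FPKM values, in which each count is scaled by the length of its gene and by the size of its library.

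The main test on the counts was the quasi-likelihood test of edgeR 4.0.16, run in R 4.3.3 after TMM normalization and the filter that edgeR sets by default. Only the 6 libraries of the compared groups entered each fit, with a call at a Benjamini-Hochberg adjusted p under 0.05 over all genes tested. The paper's methods name DESeq2 with a fold threshold. Here DESeq2 1.42.0 without that threshold and edgeR with a log2 fold of 1 were separate alternatives. The paper's rule, which joins them, was not applied. FPKM was tested with limma 3.58.1 on log2(FPKM + 1) or log2(FPKM + 0.1), for genes with a mean of at least 0.1, where fold changes of low genes are understated. The SE of a log2FC was its size divided by the root of the F statistic. TMM over the 9 libraries scaled the CPM values. Intervals cover the spread between libraries, and a level of 3 counts covers counting error only, since PCR reads are not independent molecules. The tests were tested on simulated data. Other alternatives were other size factors, no filter, a fit of all 9 libraries at once, the replicate block, rows of a symbol summed, the removal of muscle and adipocyte genes and leaving out each library.

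All 34 genes are named. Of each neighbouring list, the 2 called genes with the largest |log2FC| are named, with Scd and Srebf1 also given in the other comparisons. One gene chosen in this way is not reported here. Members and lists were chosen with earlier results of these data known. Marker lists cover oligodendrocytes, astrocytes, neurons, microglia and macrophages, Schwann cells, skeletal muscle, adipocytes, fibroblasts and endothelial cells. Promoters are from RefSeq. Fntb and Cd36 of the neighbouring lists were not analysed here.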

Additional observations from a re-analysis of the deposited data

How the results depend on the processing

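In SCI + SCS against SCI, DESeq2 called 11 members higher and 2 lower where edgeR called 0, and no other alternative made a call. The cause was not tested. Leaving out 1 library gave 8 to 9 members higher and 22 to 23 lower in SCI against Sham, 0 and 0 in SCI + SCS against SCI, and 6 to 7 higher and 18 to 21 lower in SCI + SCS against Sham. The fold threshold, applied to the edgeR results, gave 6 and 17, 0 and 0, and 6 and 16. Replicate numbers did not pair the samples (correlations of deviations from the group means -0.328 to 0.243), and the fit with the replicate block gave 8 and 23, 0 and 0, and 5 and 18. In SCI + SCS against Sham, the calls of Pmvk, Nsdhl, Dhcr7, Scap, Nr1h2 and Cyp27a1 were lost in at least 1 setting with the block or without a library. The log2FC values that changed sign were not called in their comparisons. Leaving out 1 library moved Ebp from -0.0025 to 0.16 and Abcg1 from -0.40 to 0.038 in SCI against Sham, Abca1 from -0.43 to 0.19 and Npc2 from -0.20 to 0.13 in SCI + SCS against SCI, and Lpl from -0.075 to 0.25 in SCI + SCS against Sham. On FPKM, Npc2 was at 0.0099 in SCI + SCS against SCI. The number of libraries and the depth both limit the precision, and their parts were not compared.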
